A study of Homo sapiens with 6 samples.

Results

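The BCL2 family was followed through 10 of its genes in 3 populations of the human breast cancer line MDA-MB-231. The genes were the survival members BCL2A1, MCL1, BCL2L1 and BCL2, the pore-forming members BAX and BAK1, and the BH3-only members BID, BIK, PMAIP1 and BCL2L11. All probe sets annotated to one of these symbols were taken, 23 of the 22277 on the array, and they stand for 10 of the 11963 genes named there. The genes were chosen by family membership with the signals of these same 6 arrays in view. Their differences between populations are therefore given as descriptions without p-values, and counts of members past a threshold are printed only beside the share of all genes.

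BCL2 family proteins decide whether the outer mitochondrial membrane stays intact. Survival members hold BAX and BAK1 in check, BH3-only members bind the survival members or activate BAX and BAK1 directly, and active BAX and BAK1 form pores that release cytochrome c and start the caspase cascade. Tumour cells commonly depend on MCL1 or BCL2L1 to stay alive, and BCL2A1 is best known as a survival gene of blood cells that is switched on by NF-kappa B.

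S1b and S1a are labelled as isolated seeder cell populations, numbered 2 and 1, and are set against the parental MDA-MB-231 line. Seeder cells are cancer cells that re-enter a growing tumour through the bloodstream. The labels give no added gene, drug or other treatment for any population, and all were grown subconfluent in DMEM with 10% FBS. Each population was measured on 2 arrays, titled as biological replicates with no separate cultures named, so errors and p-values cover the spread between these arrays. The labels do not say whether an isolate is 1 clone.

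The signals came from total RNA on 6 Affymetrix arrays, 1 MAS5 value per probe set and array, in arbitrary units on a linear scale. Median signals lay between 87.6 and 106.2 units. Arrays have no read depth, and their number limits the precision. The line's vimentin gene VIM had 19850 to 21386 units in S1b, 18446 to 19792 in S1a and 21208 to 27237 in parental cells, while CDH1 and PGR stayed at or under 30 units on all 6 arrays. ESR1 read 18.3 to 82.1 units over the 6 arrays and ERBB2 147 to 258. The ratio of 3' to 5' GAPDH signal, a measure of RNA integrity, was 0.984 to 0.998 in S1b, 0.976 to 0.979 in S1a and 1.06 to 1.09 in parental cells. The ACTB ratio was 1.36 to 1.39 in S1b, 1.34 to 1.46 in S1a and 1.28 to 1.55 in parental cells, so its ranges overlapped. The part of either ratio in the results below was not tested.

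The start-site regions of 8 of the 10 genes were found in RefSeq (build GRCh38.p14), each running from 250 bases before to 50 bases after the start, and the first region listed for a gene was read. Those of BCL2A1 and BCL2L11 are printed because these genes had the highest and the lowest difference from parental cells among the members above the filter on dim signals. Capitals mark the motifs searched on both strands: the TATA box TATAAA, the NF-kappa B core (GGG and CC with any 5 bases between them), the SP1 GC box GGGCGG and AP-1 TGANTCA.
BCL2A1, chr15:79971147-79971446, minus strand: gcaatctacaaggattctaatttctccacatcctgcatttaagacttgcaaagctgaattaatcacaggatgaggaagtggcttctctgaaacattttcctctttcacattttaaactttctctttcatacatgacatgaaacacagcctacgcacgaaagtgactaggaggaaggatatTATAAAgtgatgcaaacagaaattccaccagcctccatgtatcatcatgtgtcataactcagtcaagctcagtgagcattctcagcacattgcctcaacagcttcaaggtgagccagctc
BCL2L11, chr2:111120664-111120963, plus strand: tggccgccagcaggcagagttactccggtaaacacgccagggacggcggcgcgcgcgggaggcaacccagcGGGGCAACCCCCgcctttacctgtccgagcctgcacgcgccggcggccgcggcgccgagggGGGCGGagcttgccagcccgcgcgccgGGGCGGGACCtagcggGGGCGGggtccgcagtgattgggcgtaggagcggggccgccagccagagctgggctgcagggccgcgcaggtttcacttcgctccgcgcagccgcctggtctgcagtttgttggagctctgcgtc

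The BCL2A1 region was the poorest in CpG dinucleotides of the 8, with 2, and 18.2% of the 35116 promoters in the table held as few or fewer. Its GC content was 41%. The BCL2L11 region held 39 CpG at a GC content of 74.7%, and those of PMAIP1, BAX, BID and BCL2 held 42, 38, 37 and 31. BCL2L1 with 20 and BAK1 with 7 lay between, beside a median of 14 over all promoters. In the printed BCL2A1 region the only motif found was a TATA box at position -70, a motif present in 11.5% of all promoters and also in that of BCL2L1. The NF-kappa B core was found in the regions of BCL2, BAK1, BID, PMAIP1 and BCL2L11, beside 58.7% of all promoters, and some of its matches overlap GC boxes. The GC box was found in the regions of BAX, BAK1, BID, PMAIP1 and BCL2L11 (45% of all promoters) and the AP-1 motif in none (7.71% of all promoters). These matches describe letters only and say nothing on whether a factor binds there.

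Among the survival genes, BCL2A1 separated the isolates from the parental line most widely. BCL2A1 (probe set 205681_at) had 694 and 623 units in S1b, 386 and 466 in S1a, and 3.28 and 12.8 in parental cells. Every isolate array lay far above both parental arrays, and the parental values lay below 44 units, the 40th percentile of mean signal used here as the filter on dim probe sets. The means were 658 ± 49.8 in S1b, 426 ± 56.9 in S1a and 8.03 ± 6.7 units in parental cells (SD, n = 2 each). Set against 44 units, a floor that stands in for the dim parental signal, BCL2A1 was at least 15-fold higher in S1b and at least 9.68-fold higher in S1a than in parental cells. On the scale of log2(signal + 3.949), on which all log2 differences here are given, the mean of both isolates lay 5.60 ± 0.298 above parental (SE of the limma fit). That size depends on the pseudocount and was 3.82 with a pseudocount of 32. A signal from a whole population does not tell whether more cells carried BCL2A1 RNA or each cell carried more.

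BCL2A1 is a gene of blood cells, so leukocyte markers were read beside it. Of 16 such markers 15 had a named probe set, 10 of them had a mean below 44 units, and none was at 0 on any array. PTPRC, the pan-leukocyte marker CD45, lay at or below 34 units on all 6 arrays. The summed signal of the list ran from 3090 to 3240 units in S1b, 2922 to 3089 in S1a and 1665 to 1761 in parental cells. ITGB2, a leukocyte integrin subunit, had 656 and 602 units in S1b, 547 and 617 in S1a and 52.7 and 41.8 in parental cells, a rise of 3.58 ± 0.145 (log2, limma adjusted p = 1.46e-07). Without ITGB2 the sum ran from 2488 to 2584, 2375 to 2473 and 1612 to 1719 units in the same populations. LAPTM5, a lysosomal membrane protein of blood cells, rose by 0.91 ± 0.079 (adjusted p = 1.48e-05), with means of 2274 in S1b, 2068 in S1a and 1157 units in parental cells. LAPTM5 alone made up most of the sum without ITGB2 on every array, so that sum does not show a rise across the list. The monocyte marker CD14 went the other way, with 26.4 and 26 units in S1b, 43.9 and 69.8 in S1a and 70.5 and 103 in parental cells (-1.08 ± 0.368, adjusted p = 0.0356). The other tested markers, CD53 and CORO1A, gave -0.53 ± 0.567 and 0.51 ± 0.427 and did not pass (limma adjusted p = 0.472 and 0.356). The summed signal of 8 fibroblast and endothelial markers ran from 241 to 256 units in S1b, 284 to 310 in S1a and 368 to 455 in parental cells. The part of either list in the BCL2A1 result was not tested.

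MCL1, a short-lived survival protein, was moderately higher in the isolates on its brightest probe set. That probe set (200797_s_at) read 3563 and 3264 units in S1b, 3097 and 3507 in S1a, and 2345 and 2206 in parental cells. All 4 isolate arrays lay above both parental arrays, by 1.48-fold in the mean of both isolates (log2 difference 0.56 ± 0.0809). The other 4 MCL1 probe sets were less uniform. Probe set 214056_at gave 0.63 ± 0.153 with no overlap of arrays, whereas 214057_at gave 0.33 ± 0.177 and 200798_x_at 0.19 ± 0.0861, both with overlapping arrays. On 214057_at and 200798_x_at S1b alone lay above parental without overlap, at 0.52 ± 0.204 and 0.37 ± 0.0994. There S1a overlapped parental, at 0.15 ± 0.204 and 0.02 ± 0.0994, so the rise in S1a depended on the probe set. Probe set 200796_s_at went the other way at -0.20 ± 0.171. With the mean of all 5 probe sets the MCL1 difference was 0.30.

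BCL2L1, which encodes BCL-XL, differed little between the populations. Its brightest probe set (212312_at) had 1283 and 1363 units in S1b, 1468 and 1626 in S1a, and 1151 and 1560 in parental cells. The parental arrays lay further apart than the group means, and the isolates differed from parental by 0.09 ± 0.116. Its other probe sets gave -0.02 ± 0.124 and 0.15 ± 0.135.

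BCL2 itself was read by 4 probe sets, of which only 203685_at had a mean above 44 units. It read 189 and 134 units in S1b, 138 and 150 in S1a, and 178 and 85.8 in parental cells, so the isolate values fell within or next to the parental range. Its log2 difference of 0.28 ± 0.28 became 0.79 without parental replicate 1 and -0.23 without parental replicate 2. A pair of dim BCL2 probe sets had higher isolate values. Probe set 203684_s_at read 46.6 and 55.5 units in S1b, 22.4 and 27 in S1a and 8.43 and 11.1 in parental cells. Probe set 207004_at read 38.7 and 52.6 in S1b, 43.9 and 57.7 in S1a and 16.8 and 21.2 in parental cells. Their arrays did not overlap with parental, but the values sit around or under the dim-signal line. The fourth probe set, 207005_s_at, stayed at or under 16.7 units throughout.

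**Figure D1:**
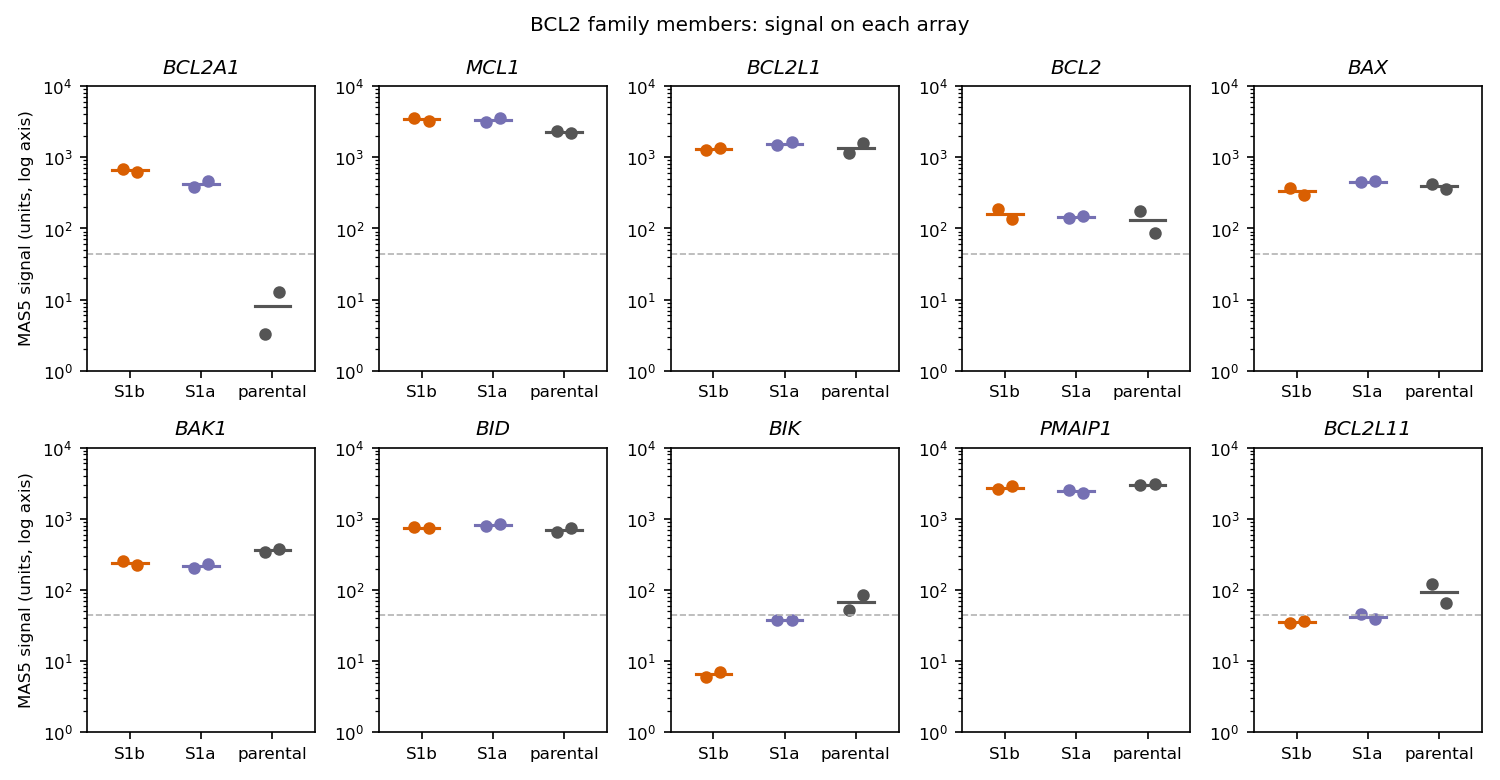
Signal of each BCL2 family member on each array (brightest probe set, log axis), for S1b, S1a and parental cells; points are arrays, bars are the means of 2 arrays and the dashed line marks 44 units. BCL2A1 lies between 386 and 694 units in the isolates and at 3.28 and 12.8 in parental cells, and BIK is at 5.92 and 7.1 units in S1b.

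The pore-forming genes did not move together. BAK1, whose protein sits in the outer mitochondrial membrane, had 251 and 221 units in S1b, 205 and 232 in S1a, and 344 and 373 in parental cells (probe set 203728_at). Every isolate array was below both parental arrays, and the mean of both isolates was lower by a factor of 1.58 (log2 difference -0.65 ± 0.136). BAX, which moves from the cytosol to mitochondria when activated, gave different readings on its probe sets. On the brighter one (211833_s_at) it read 375 and 292 units in S1b, 444 and 457 in S1a, and 422 and 359 in parental cells. There S1b overlapped parental, S1a lay just above it, and the mean of both isolates differed by -0.01 ± 0.134 (0.18 with median centring). On the dimmer BAX probe set (208478_s_at) the values were 327 and 305 in S1b, 361 and 396 in S1a, and 271 and 235 in parental cells. Here all isolate arrays lay above parental, with a difference of 0.45 ± 0.122.

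Among the BH3-only genes, BIK and BCL2L11 were lower in the isolates at dim signals, PMAIP1 was slightly lower and BID was level or higher. BIK, an endoplasmic reticulum protein that binds survival members, had 5.92 and 7.1 units in S1b, 37.8 and 37.4 in S1a, and 52.9 and 84 in parental cells (205780_at). The populations did not overlap, in the order S1b below S1a below parental. BIK had a mean under 44 units and was the 1 member left out of the fit by the filter. Both isolates lay under that line, so for each only a bound of at least 1.56-fold lower than parental can be given. Between S1b and S1a no fold is given, since both were dim.

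BCL2L11, which encodes BIM, a BH3-only protein that binds all survival members, read 34.4 and 37.2 units in S1b, 45.4 and 38.5 in S1a, and 121 and 65.9 in parental cells (222343_at). All isolate arrays lay below both parental arrays. As both isolate means were dim, the parental mean is set against 44 units, which gives a mean at least 2.13-fold lower in S1b and in S1a. The log2 difference was -1.13 ± 0.369, and it was -0.71 without parental replicate 1 and -1.55 without parental replicate 2. Its other probe set (208536_s_at) was dimmer, at or under 16.8 units in the isolates and at 15.3 and 30.4 in parental cells, where S1a overlapped parental.

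PMAIP1 encodes NOXA, a p53-inducible protein that binds MCL1 and BCL2A1. It had 2614 and 2870 units in S1b, 2510 and 2318 in S1a, and 2953 and 3083 in parental cells (204285_s_at). The isolate arrays all lay below parental, by a factor of 1.17 in the mean of both isolates (-0.23 ± 0.0761), and its other probe set overlapped parental at -0.18 ± 0.0932. The PMAIP1 difference was -0.04 when arrays were centred on their median signal, a scaling that moved the median of all genes to 0.165, against -0.026 without it.

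BID, which is cut by caspase 8 and then activates BAX and BAK1, had 765 and 740 units in S1b, 790 and 855 in S1a, and 657 and 745 in parental cells (211725_s_at), with S1b overlapping parental. The difference there was 0.17 ± 0.0924. Its dimmer probe set (204493_at) read 399 and 459 in S1b, 506 and 442 in S1a, and 313 and 306 in parental cells. On that probe set all isolate arrays lay above both parental arrays and the difference was 0.53 ± 0.112, while S1b and S1a overlapped.

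**Figure D2:**
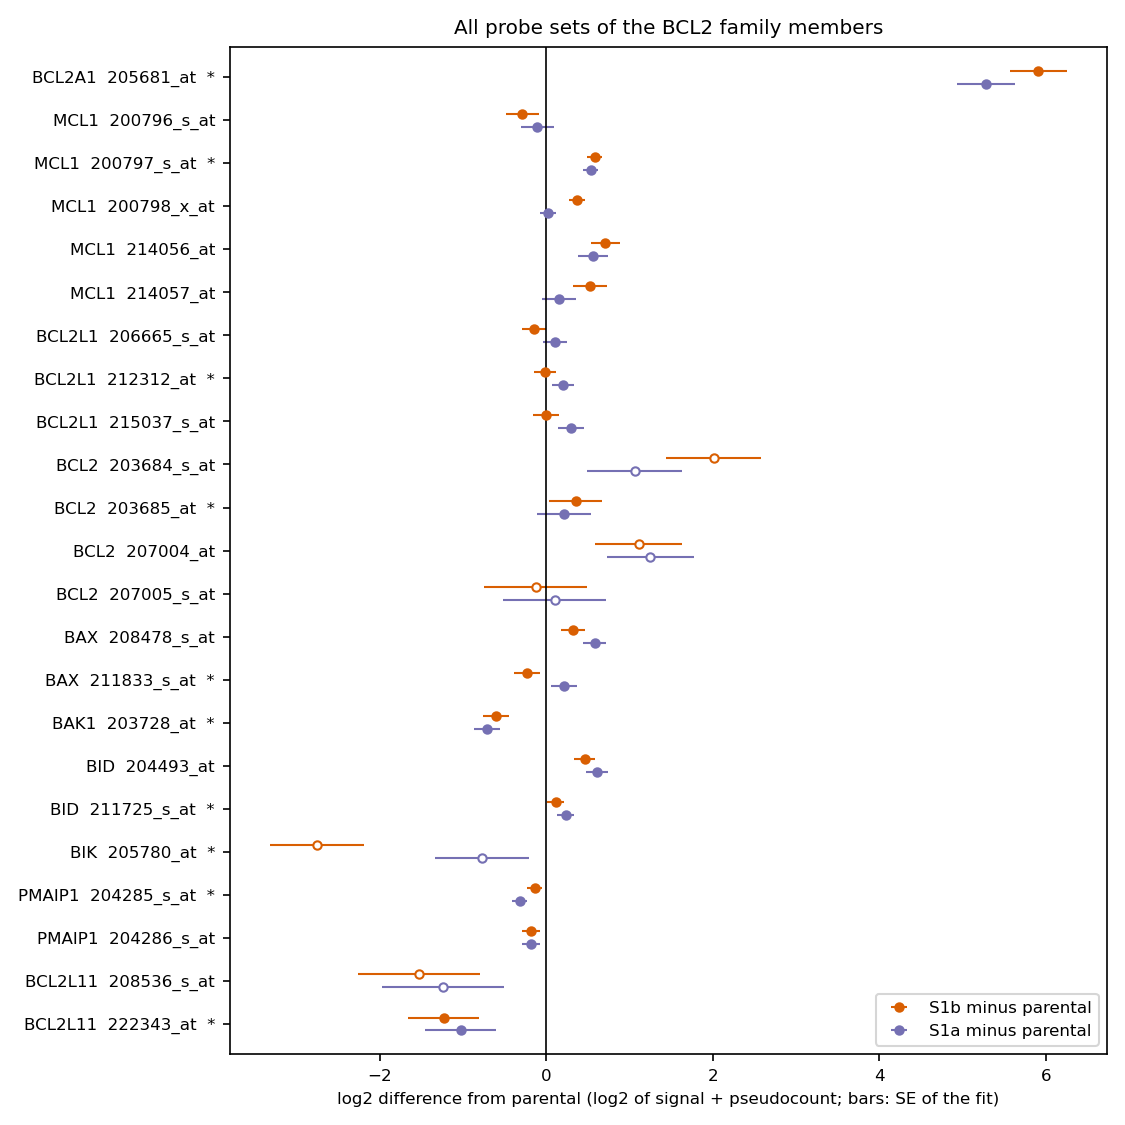
Log2 difference from parental of all 23 probe sets of the 10 genes, for S1b and S1a (points, with the SE of the fit as bars); open points are probe sets with a mean below 44 units and asterisks mark the brightest probe set of each gene. BCL2A1 stands at 5.91 in S1b and 5.28 in S1a, most others lie within 1 unit of 0, and probe sets of MCL1, BCL2, BAX and BID differ among themselves.

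Between the isolates, 6 of the 9 members above the filter had S1b and S1a arrays that did not overlap, beside 49.6% of all genes tested, and all 9 differences lay between -0.44 and 0.63. BAX was the member with the largest negative difference above the filter, at -0.44 ± 0.154 in S1b minus S1a (334 ± 59.1 against 450 ± 9.39 units, SD, n = 2 each), with both S1b arrays below both S1a arrays on either BAX probe set. BCL2A1 lay higher in S1b by 1.55-fold (0.63 ± 0.344), without overlap of arrays. BCL2L1 was lower in S1b on all 3 of its probe sets, by -0.22 ± 0.134 on the brightest. BAK1 (0.11 ± 0.157) and the brightest MCL1 probe set (0.05 ± 0.0934) overlapped between the isolates. On MCL1 probe sets 200798_x_at and 214057_at S1b lay above S1a without overlap, at 0.35 ± 0.0994 and 0.37 ± 0.204. Probe sets 214056_at (0.15 ± 0.176) and 200796_s_at (-0.18 ± 0.197) overlapped.

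The filter kept 9 of the 10 members. BIK, with a mean of 37.5 units, lay just under it and BCL2L11, with 57.1, was the nearest member above it. BCL2L11 and BCL2A1 passed it through the population in which each was high. In the limma fit of both isolates against parental, 2 of the 9 lay past the adjusted threshold of 0.05 as higher and 3 as lower, beside 46.2% of all 7791 genes tested (22.7% higher and 23.5% lower). Arrays did not overlap for the same numbers of members, beside 56.7% of all genes (27% higher and 29.7% lower). For S1b the counts were 2 higher and 2 lower, beside 41.6% of all genes (20.7% and 20.9%), and arrays did not overlap for 2 and 3, beside 69.7% (33.7% and 36%). For S1a they were 2 higher and 2 lower, beside 39.2% of all genes (19.4% and 19.9%), and arrays did not overlap for 4 and 3, beside 70.5% (33.3% and 37.1%). In S1b minus S1a limma called none of the 9, beside 1.89% of all genes (0.462% higher and 1.42% lower). At an unadjusted p under 0.05 it called 1 of the 9 there (11.1%), beside 14.9% of all genes. Arrays of the isolates did not overlap for 2 members higher and 4 lower in S1b, beside 25.7% and 23.9% of all genes. As the members were listed with these contrasts known, nothing is read from these counts.

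The genes nearest to BCL2A1 in pattern over the 6 arrays were found by Euclidean distance between centred log2 signals among 7790 other genes. They were the phospholipase C gene PLCB1 (distance 1.09), the collagenase MMP1 (1.55), the teneurin TENM3 (1.59), the RNA-binding protein gene KHDRBS3 (1.61) and the metalloproteinase ADAMTS1 (1.72). PLCB1 shared the dim and scattered parental signal of BCL2A1, with 450 and 435 units in S1b, 456 and 593 in S1a and 3.23 and 21.5 in parental cells. BCL2L11 was nearest to the nucleotide synthesis gene IMPDH1 (0.24), the histone demethylase gene KDM6A (0.35), ZNF253 (0.36), the ubiquitin ligase gene MARCHF2 (0.38) and RADX (0.38), which acts at replication forks. All 5 shared a higher value on parental replicate 1 than on parental replicate 2. The distances describe 6 arrays in 3 populations and carry no test.

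On chromosome 15, none of the tested genes beside BCL2A1 was called higher. Of the 5 genes on each side of it 4 had a named probe set and 3 could be tested. ZFAND6, a zinc finger gene, had means of 1533 in S1b, 1473 in S1a and 1469 units in parental cells (0.03 ± 0.0738, limma adjusted p = 0.745). ST20 gave -0.18 ± 0.141 (adjusted p = 0.325). FAH, the last enzyme of tyrosine breakdown, fell, with means of 373 in S1b, 449 in S1a and 696 units in parental cells (-0.75 ± 0.112, adjusted p = 0.000411). A wider set, the 5 genes on each side that have a named probe set, was looked at after the values were seen. In it ARNT2 fell by 0.99 ± 0.261 (log2, adjusted p = 0.0111), as did CEMIP, a hyaluronan-degrading protein gene, with 17.7 and 12.8 units in S1b, 70.4 and 97 in S1a and 1260 and 1120 in parental cells (-4.88 ± 0.224, adjusted p = 2.65e-07). RASGRF1 (-0.25 ± 0.225) and TMED3 (-0.03 ± 0.115) did not pass.

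Other genes of the pathway were described through 5 lists with 68 genes, none of them a member. The lists too were chosen with earlier results of these data known, so their adjusted p-values are no independent test. Of these, 58 had a named probe set and 51 were tested, and the others were not analysed here. With both isolates averaged and set against parental, 15 rose and 8 fell, 23 in all, beside 46.2% of all genes (22.7% higher and 23.5% lower). The median of the 51 was 0.05, beside -0.026 for all genes tested. With S1b alone set against parental 15 rose and 9 fell, beside 20.7% and 20.9% of all genes. With S1a alone 10 rose and 6 fell, beside 19.4% and 19.9%, so some calls below were passed by S1b only. In S1b minus S1a limma called none of the 51, beside 1.89% of all genes. At an unadjusted p under 0.05 it called 9 (17.6%), beside 14.9% of all genes.

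Of the 9 tested genes on the list of other BCL2 family and BH3-only genes, 6 rose and none fell, beside 22.7% and 23.5% of all genes. Their median was 0.35, beside -0.026 for all genes. The list is wider than its name, as it also holds partner genes such as BNIP2 and MOAP1. BBC3 and BMF had no named probe set and HRK was too dim to test, so the count does not speak for BH3-only genes as a class. BNIP3L, a mitochondrial receptor that directs mitochondria to autophagy, had 4466 and 5149 units in S1b, 3946 and 4113 in S1a, and 2223 and 1799 in parental cells. All isolate arrays lay above parental, and the rise was 1.13 ± 0.098 (log2, SE, limma adjusted p = 1.41e-05). BNIP2, a cytosolic scaffold protein, rose by 0.81 ± 0.0919 (adjusted p = 7.62e-05), with means of 1236 in S1b, 1077 in S1a and 656 units in parental cells. MOAP1, a binding partner of BAX, rose by 0.44 ± 0.0745 and the autophagy gene BECN1, which binds BCL2, by 0.44 ± 0.0778 (adjusted p = 0.000927 and 0.00118). The survival gene BCL2L2, named after its value was seen, rose by 0.35 ± 0.114 (adjusted p = 0.0273). Its arrays were 747 and 721 units in S1b, 501 and 588 in S1a and 448 and 542 in parental cells, where S1a overlapped parental. BAD and the mitophagy receptor BNIP3 gave 0.03 ± 0.0869 and 0.13 ± 0.0712 and did not pass.

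Downstream of the mitochondria, 3 of 14 tested genes of the apoptosome, mitochondrial release and caspase list rose and 3 fell, with a median of 0.10. The executioner caspase gene CASP6 had 309 and 398 units in S1b, 469 and 479 in S1a, and 1122 and 1085 in parental cells. Its isolate arrays lay at less than 1 in 2 of the parental signal, and it fell by 1.43 ± 0.114 on the log2 scale (limma adjusted p = 8.97e-06). CASP2 fell by 0.83 ± 0.219 (adjusted p = 0.0112) and AIFM1, a mitochondrial flavoprotein, by 0.31 ± 0.106 (adjusted p = 0.0371). The mitochondrial protease gene HTRA2 rose by 0.31 ± 0.085, DFFA, the inhibitor subunit of the caspase-activated DNase, by 0.37 ± 0.106, and the initiator caspase gene CASP9 by 0.41 ± 0.143 (adjusted p = 0.0133, 0.0163 and 0.0406). HTRA2 and CASP9 passed in S1b but not in S1a, where they gave 0.21 ± 0.0982 and 0.22 ± 0.165 (limma adjusted p = 0.118 and 0.319). AIFM1 passed in neither isolate alone (limma adjusted p = 0.0618 in S1b and 0.0789 in S1a). The AIFM1 call ended in 11 and the CASP9 call in 10 of the 15 alternatives that could be run for each. The DFFA call ended without S1b replicate 2, S1a replicate 1 or parental replicate 1, the CASP2 call without parental replicate 1 and the HTRA2 call with the mean of probe sets. APAF1 and CYCS, which build the apoptosome, gave -0.04 ± 0.149 and -0.08 ± 0.0716 and did not pass.

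Of the 4 tested inhibitor of apoptosis genes 1 rose and 1 fell, with a median of -0.18. BIRC5, which encodes survivin and also serves in cell division, rose by 0.46 ± 0.0691 (limma adjusted p = 0.000437). Its other probe sets above the filter gave 0.34 and 0.11, and the mean of its probe sets 0.30. XIAP, a direct caspase inhibitor, had 37.6 and 49 units in S1b, 64.3 and 62.2 in S1a, and 128 and 107 in parental cells. XIAP passed in S1b but not in S1a, at -1.37 ± 0.329 and -0.85 ± 0.329 (limma adjusted p = 0.00817 and 0.0656). With both isolates averaged the values were as follows. XIAP fell by 1.11 ± 0.285 (log2, adjusted p = 0.00985), and the call ended without parental replicate 1 (adjusted p = 0.061) and where probe sets with shared-probe suffixes were left out, which moved XIAP to its other probe set (-0.64, adjusted p = 0.194).

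Of 15 tested transcription factors known to act on members of the family, 3 rose and 3 fell, with a median of -0.28. ATF4, the factor of the amino acid response, rose by 0.92 ± 0.0817 (limma adjusted p = 1.6e-05), with means of 6444 in S1b, 6668 in S1a and 3460 units in parental cells. STAT3 rose by 0.69 ± 0.0722 and MITF, which drives BCL2A1 in melanocytes, by 0.59 ± 0.13 (adjusted p = 4.97e-05 and 0.00427). WT1, a zinc finger factor, had 46.9 and 29.8 units in S1b, 54.1 and 61.7 in S1a, and 399 and 363 in parental cells. WT1 fell by 2.93 ± 0.253 (log2, adjusted p = 1.41e-05), and its isolate arrays lay near the dim-signal line. The NF-kappa B subunit genes RELB and NFKB1 fell by 0.97 ± 0.226 and 0.34 ± 0.0987 (adjusted p = 0.00577 and 0.0188). RELB passed in S1b but not in S1a, at -1.26 ± 0.261 and -0.69 ± 0.261 (limma adjusted p = 0.00361 and 0.0607). RELA (0.08 ± 0.0933), REL (-0.44 ± 0.241) and NFKB2 (-0.63 ± 0.264) did not pass, and the other NFKB2 probe set above the filter gave 0.52. The NFKB1 call ended without S1a replicate 2 or either parental array and with median centring.

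Of 9 tested genes that act on the turnover of MCL1, BIM or NOXA, 2 rose and 1 fell, with a median of -0.15. USP9X, a deubiquitinase that stabilises MCL1, had 1671 and 1546 units in S1b, 1462 and 1476 in S1a, and 2389 and 2442 in parental cells. It fell by 0.65 ± 0.0729 on the log2 scale (limma adjusted p = 7.26e-05). GSK3B, a kinase that marks MCL1 for degradation, rose by 0.69 ± 0.137 (adjusted p = 0.00237). HUWE1, a ubiquitin ligase for MCL1, passed at 0.31 ± 0.113 (adjusted p = 0.0429), but its other probe set above the filter gave -0.58 and the mean of its probe sets -0.14. In S1a alone HUWE1 did not pass (0.27 ± 0.13, limma adjusted p = 0.13). The HUWE1 call ended in 9 of 15 alternatives, with 0.11 (adjusted p = 0.307) without parental replicate 1. FBXW7, a further ligase for MCL1, did not pass (-0.23 ± 0.288).

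**Figure D3:**
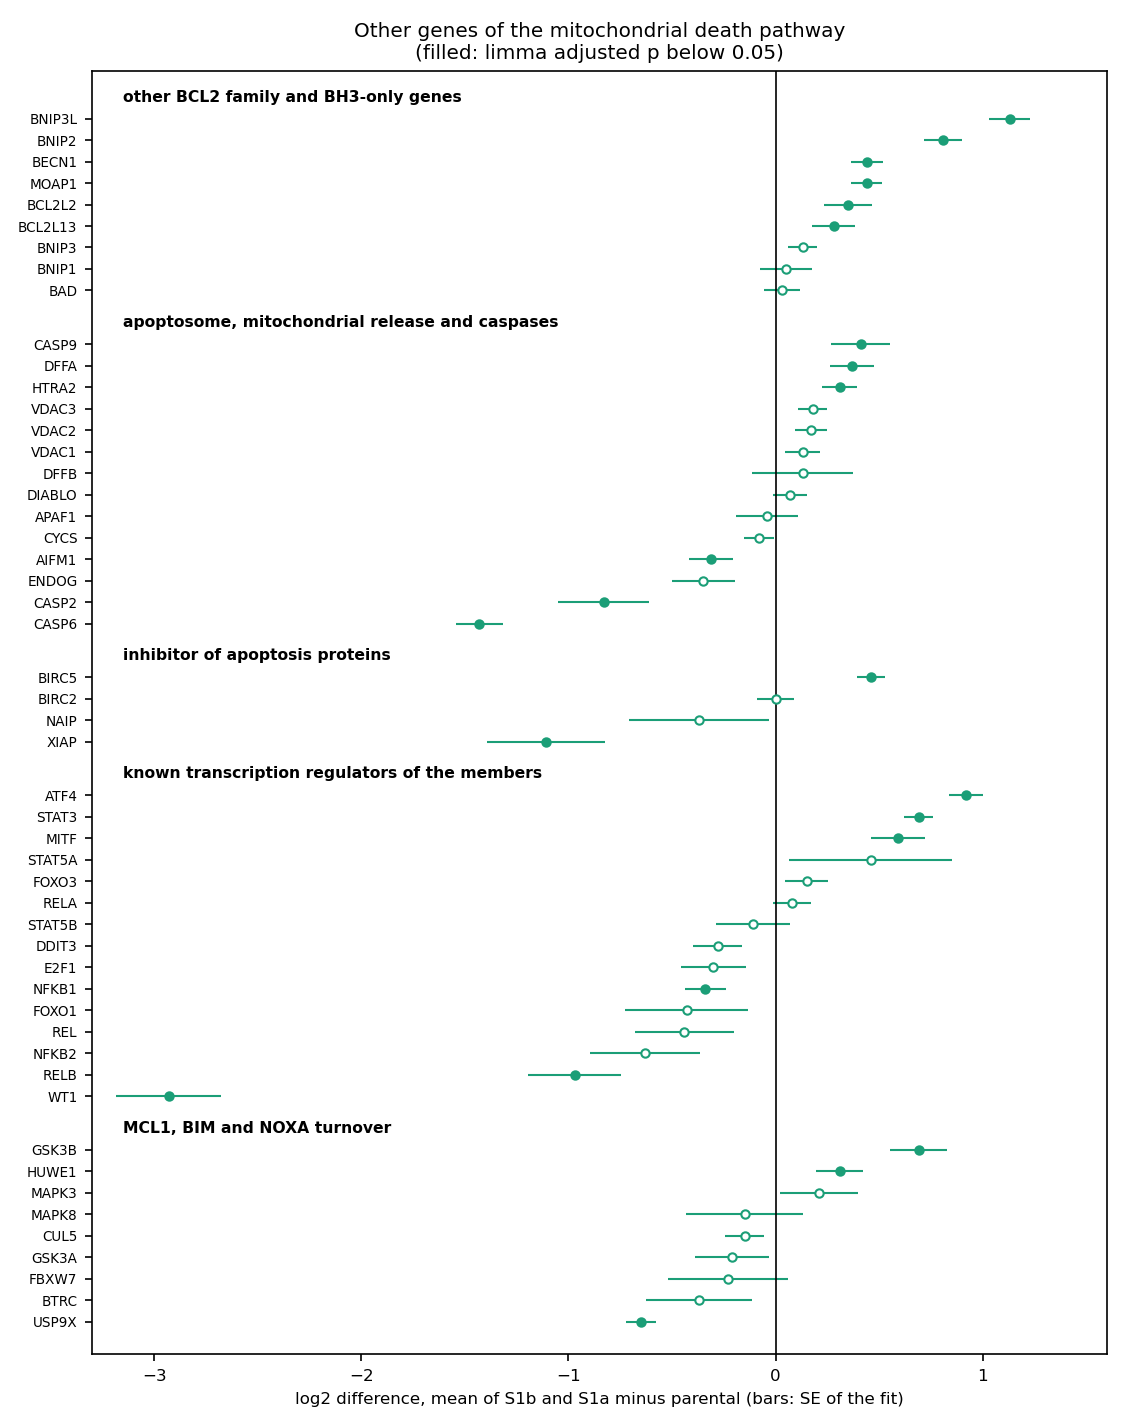
Log2 difference of the 51 tested pathway genes, mean of S1b and S1a minus parental, by list (points, with the SE of the fit as bars); filled points passed the limma threshold. BNIP3L at 1.13 is the highest point, and WT1 at -2.93 and CASP6 at -1.43 are the lowest.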

How the data were processed

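The authors deposited 1 intensity per probe set and array on a linear scale, which per the submitters' processing notes came from MAS5. Its version is not given in the sources used here. Every array had a trimmed mean of 500.2 units. Of 22277 probe sets 62 controls were left out, 19064 had 1 gene symbol, 1043 several and 2108 none. Symbols were updated through a RefSeq table (19052 matched). A gene took its probe set with the highest mean signal, and genes with a mean below 44 units (40th percentile) were not tested. On log2(signal + 3.949), with the 10th percentile as pseudocount, limma 3.58.1 in R 4.3.3 fitted 3 group means to all 6 arrays with a variance trend, and Benjamini-Hochberg adjustment ran over 7791 genes. Standard errors of other probe sets and of BIK come from the same model over all probe sets. The fit was tested on simulated data. Detection calls were not used here.

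Members and lists were chosen with earlier results of these data known. Named were all members, up to 4 genes per list and direction with the smallest p-values, and the neighbours of BCL2A1. The 5 genes nearest to BCL2A1 and to BCL2L11, the member above the filter with the largest fall, were named as well. Motifs were chosen with the promoters in view. Alternatives were the pseudocount, filter, scaling, probe set rule, variance model, array weights, single arrays left out and the replicate number as a block.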

Additional observations from a re-analysis of the deposited data

How the results depend on the processing

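Counts of calls moved by over 1.5 times in these cases. With shared-probe suffixes left out, 4781 genes were tested, and 2062 passed for both isolates against parental, 1895 for S1b and 1731 for S1a, with 13, 13 and 9 of 29 pathway genes; fewer genes were tested. Genes called in S1b minus S1a numbered 63 with no filter, 60 with the mean of probe sets, 58 without shared-probe suffixes, 4 with no variance trend and 320 with array weights, beside 147; the cause was not tested. With median centring 2 of the 9 members passed in S1b against parental, beside 3439 of all 7791 genes. That scaling moved the split of all calls for both isolates to 2698 higher and 1087 lower, against 1771 and 1829, and that of pathway genes to 22 and 6, against 15 and 8. Leaving out 1 array gave 3016 to 3295 genes for both isolates, 2223 to 3151 for S1b, 1900 to 2920 for S1a and 22 to 343 for S1b minus S1a. Pathway genes called then ran from 16 to 23, 15 to 23, 10 to 14 and 0 to 0, and members from 3 to 5, 2 to 4, 3 to 6 and 0 to 0. The S1a counts without S1a replicate 2 (1900) and S1a replicate 1 (1960) were the lowest. The S1b counts of pathway genes and of members moved without S1b replicate 2, and the S1a count of pathway genes without S1a replicate 1. The count of members for both isolates moved without S1b replicate 1 or either S1a replicate. Genes called in S1b minus S1a were 46 and 22 without S1b replicates 1 and 2, 34 and 36 without S1a replicates 1 and 2, and 339 and 343 without parental replicates 1 and 2. HUWE1 turned to -0.14 for both isolates and -0.05 for S1b with the mean of probe sets. The replicate number pairs no samples by the labels, and deviations of same-numbered arrays correlated at -0.058, -0.067 and -0.005 across genes. With the replicate block, 64 of 7791 genes passed in S1b minus S1a. For both isolates 3350 passed, with 20 of 51 pathway genes and 4 of 9 members. With 2 arrays per population and dim parental BCL2A1 signals, the size of its difference is a bound only.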
